A study of Mus musculus with 10 samples.

Results

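The genes described are 7 mouse Fc receptor genes, Fcgr1, Fcgr2b, Fcgr3, Fcgr4, Fcer1g, Fcgrt and Fcrla, taken by symbol from a count table of 19178 genes, and all 7 had a row in it and passed the filter on low counts. The RNA came from dendritic cells, which take up antigen and present it to T cells. The 10 libraries fall into a Ptbp1-deficient group (n = 5 libraries) and a WT, or wild-type, group (n = 5 libraries). The mice of both groups were 8 to 10 weeks old. Ptbp1 is a regulator of splicing that binds pyrimidine-rich RNA, and the design sets cells short of it beside cells that have it. The labels name neither the allele or driver behind the deficiency, nor the tissue, the sort or the sex, and they name no treatment of either group. Nor do they state whether 1 mouse gave 1 library, so the spread behind each p-value is that between libraries and may be technical.

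Fc receptors bind the constant part of antibodies and so tie immune complexes to phagocytosis, antigen presentation and cell activation. Activating receptors for IgG lack a signalling motif of their own and pair with the Fc receptor gamma chain, whose ITAM (a tyrosine-based activation motif) recruits the kinase Syk. The inhibitory receptor Fcgr2b carries its own inhibitory motif (ITIM), which recruits phosphatases, and on dendritic cells the balance between both kinds is known to tune how strongly immune complexes activate the cell. Fcgrt, the neonatal Fc receptor, works inside the cell, where it protects IgG and albumin from degradation.

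Reads counted within genes numbered 61759378 to 92697815 in Ptbp1-deficient libraries and 50516163 to 66153758 in WT libraries. Ptbp1 itself stood at 73.2 to 75.7 CPM (reads of the gene relative to all gene reads of the library, with edgeR's TMM scaling) in the 5 Ptbp1-deficient libraries and at 259 to 312 CPM in the 5 WT libraries, 25.3% of the WT mean. In the deposited FPKM values Ptbp1 was at 28.7 ± 6.02 FPKM in Ptbp1-deficient libraries and 65.3 ± 2.80 FPKM in WT libraries (SD, n = 5 each), a smaller difference. All 12 dendritic cell markers looked for had a row, Flt3 and Zbtb46 among them. So did all 15 B cell, 14 NK cell and 11 neutrophil markers. Genes with a row had at least 2 counts in every library, so a row alone does not show which cells were present. A set of 17 macrophage markers summed to 673 to 1529 CPM in Ptbp1-deficient libraries and 1971 to 5325 CPM in WT libraries. Within the Ptbp1-deficient group replicates 1 and 2 were lowest, at 694 and 673 CPM, and within WT replicates 1 and 5 were highest, at 3668 and 5325 CPM. WT replicate 5 also led the 15 B cell markers, with 2276 CPM. In bulk RNA fewer cells of a type and less RNA per cell cannot be told apart.

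Among the 7 receptors the inhibitory receptor gene Fcgr2b fell, as did the activating receptor gene Fcgr3, and no receptor rose at an adjusted p under 0.05 (edgeR's quasi-likelihood test, adjusted over the 18248 genes tested). These 2 of 7, or 28.6%, are close to the background, since 23.1% of all genes were called lower, 21.9% higher and 45.0% in either direction. The median log2 fold change of the 7 genes was -0.13, against -0.03 over all genes tested. Without WT replicates 1 and 5, Fcgr2b fell and Fcgrt and Fcrla rose, where 22.3% of all genes were lower, 21.7% higher and 44.0% called in all. Without Ptbp1-deficient replicates 1 and 2, Fcgr2b fell and no other receptor was called, where 20.6% of all genes were lower, 19.3% higher and 39.9% called in all. In the deposited FPKM values, tested with limma on the log2(FPKM + 1) scale, Fcgr2b and Fcgr3 fell and none rose, where 27.2% of 11968 genes were lower, 20.3% higher and 47.6% called in all.

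**Figure D1:**
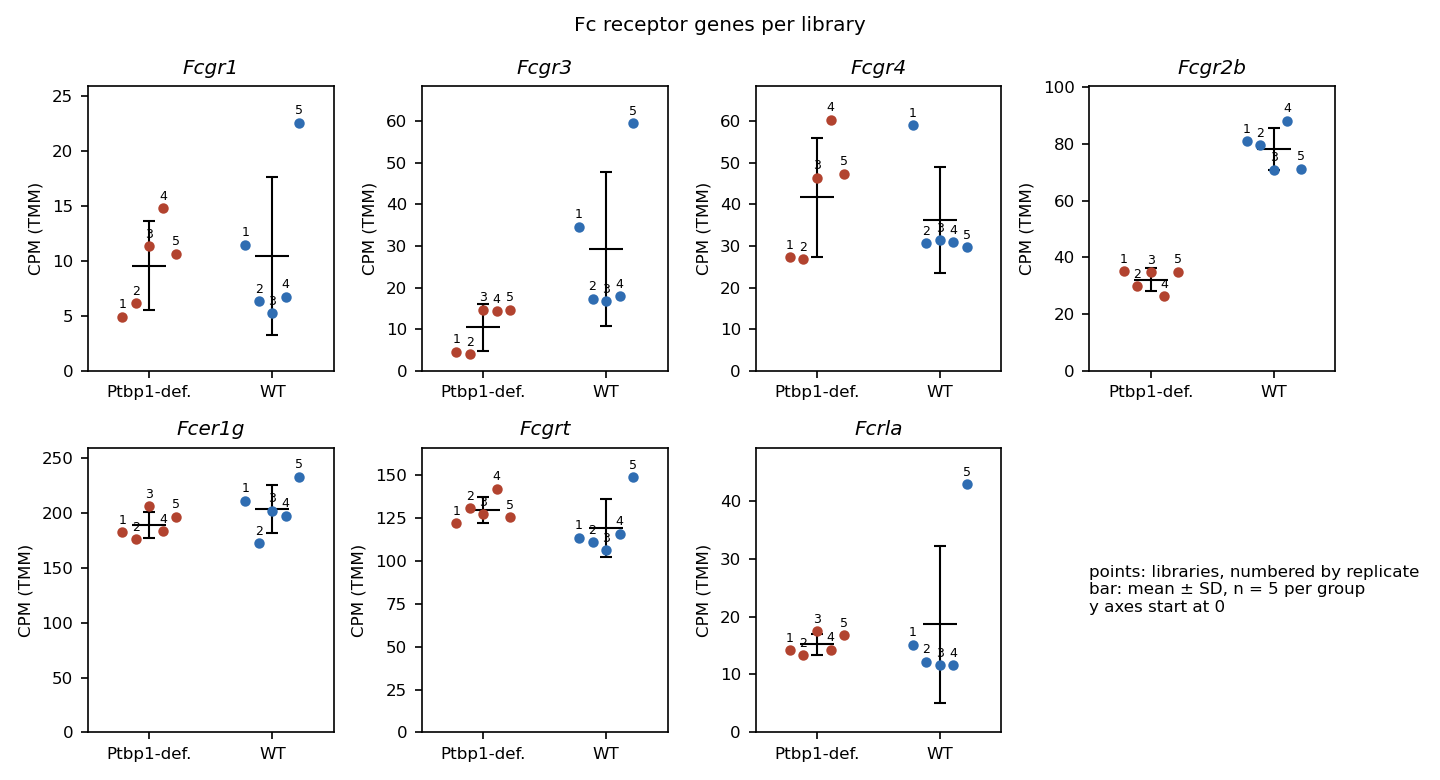
TMM-normalized CPM (y axis, from 0) of the 7 Fc receptor genes in each Ptbp1-deficient and WT library, with replicate numbers above the points and the mean and SD of 5 libraries as bars. Fcgr2b lies between 26.3 and 35.2 CPM in Ptbp1-deficient libraries and between 70.9 and 88.2 CPM in WT libraries, the groups of Fcgr3 nearly touch, at 14.7 and 16.7 CPM, and those of the other 5 genes overlap.

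Fcgr2b, on the minus strand of chromosome 1 (ENSMUSG00000026656, protein coding, 170958617 to 170976547, GRCm38), encodes the only inhibitory receptor for IgG in this set. It stood at 35.2, 29.8, 34.8, 26.3 and 35.0 CPM in Ptbp1-deficient replicates 1 to 5, against 81.0, 79.6, 70.9, 88.2 and 71.3 CPM in WT replicates 1 to 5. Every Ptbp1-deficient library lay below every WT library, a separation that 16.2% of all genes tested showed in this direction, 17.2% in the other and 33.4% in either. Fcgr2b averaged 32.2 ± 4.03 CPM in Ptbp1-deficient libraries and 78.2 ± 7.26 CPM in WT libraries (SD, n = 5 each), a log2 fold change of -1.28 (SE 0.09, edgeR adjusted p = 1.2e-06), or 2.43-fold lower. It was one of the 6.04% of genes that fell by over 2-fold. The counts behind it ranged from 1903 to 5246 per library. Under all 25 alternatives Fcgr2b fell, with log2 fold changes from -1.36 to -1.22.

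Within each group the libraries that stood apart in macrophage markers did not stand apart in Fcgr2b. The Ptbp1-deficient libraries lowest in macrophage markers, replicates 1 and 2, had 35.2 and 29.8 CPM of Fcgr2b, against 26.3 to 35.0 CPM in Ptbp1-deficient replicates 3 to 5. In a fit that also holds a macrophage marker score (the mean log2 CPM profile of the markers) its log2 fold change was -1.34 (SE 0.14, edgeR adjusted p = 2.8e-05), and with the B cell score it was -1.32 (SE 0.12, edgeR adjusted p = 6.8e-06). The macrophage marker sums of the groups did not overlap, at most 1529 CPM in Ptbp1-deficient and at least 1971 CPM in WT libraries. Genotype and macrophage score therefore cannot be told apart in full. Markers of conventional dendritic cell types moved between the groups as well. Of 12 markers of cDC2, the conventional type that mainly primes CD4 T cells, 10 fell, with a summed level of 1182 to 1399 CPM in Ptbp1-deficient libraries and 1821 to 1983 CPM in WT libraries. Of 12 markers of cDC1, the cross-presenting type, 11 rose, with a summed level of 7323 to 8840 CPM in Ptbp1-deficient libraries and 4007 to 5359 CPM in WT libraries. The part of these shifts, or of macrophage and B cell RNA, in the fall of Fcgr2b was not tested. Fcgr2b is known to be spliced into forms that differ in their cytoplasmic part, and the annotation holds 4 protein-coding transcripts. Gene counts do not separate them.

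Fcgr3, also on the minus strand of chromosome 1 (ENSMUSG00000059498, protein coding, 171051174 to 171064935), encodes a low-affinity activating receptor for IgG that needs the gamma chain, and it is best known from macrophages, neutrophils and NK cells. It stood at 4.60, 4.10, 14.7, 14.3 and 14.7 CPM in Ptbp1-deficient replicates 1 to 5, against 34.7, 17.3, 16.7, 17.9 and 59.5 CPM in WT replicates 1 to 5. The groups did not overlap, but Ptbp1-deficient replicates 3 to 5 were close to WT replicates 2 to 4, and both groups were split inside. Fcgr3 averaged 10.5 ± 5.61 CPM in Ptbp1-deficient libraries and 29.2 ± 18.5 CPM in WT libraries (SD, n = 5 each), with a log2 fold change of -1.47 (SE 0.46, edgeR adjusted p = 0.022).

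The level of Fcgr3 followed the macrophage markers from library to library. Per 100 CPM of the 17 macrophage markers, Fcgr3 had 0.609 to 1.08 CPM in Ptbp1-deficient libraries and 0.847 to 1.12 CPM in WT libraries, and these ranges overlapped. Without WT replicates 1 and 5 the log2 fold change of Fcgr3 was -0.71 (SE 0.38, edgeR adjusted p = 0.15), and without Ptbp1-deficient replicates 1 and 2 it was -1.01 (SE 0.42, edgeR adjusted p = 0.086). Given the macrophage score it was 0.23 (SE 0.10, edgeR adjusted p = 0.092). The score itself differed between the groups, and genotype and score cannot be told apart in full. Of the 17 macrophage markers 13 fell and none rose, and without WT replicates 1 and 5, 8 fell. Markers of NK cells, which also carry Fcgr3, moved the other way, with 8 of 14 higher and 1 lower, or 13 and 1 without WT replicates 1 and 5, and a summed level of 298 to 406 CPM in Ptbp1-deficient libraries and 164 to 213 CPM in WT libraries. Of 11 neutrophil markers 2 fell and none rose, but without WT replicates 1 and 5, 8 rose and 2 fell, with sums over all libraries of 127 to 223 CPM in Ptbp1-deficient libraries and 129 to 942 CPM in WT libraries. The part of NK cell and neutrophil RNA in the level of Fcgr3 was not tested.

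**Figure D2:**
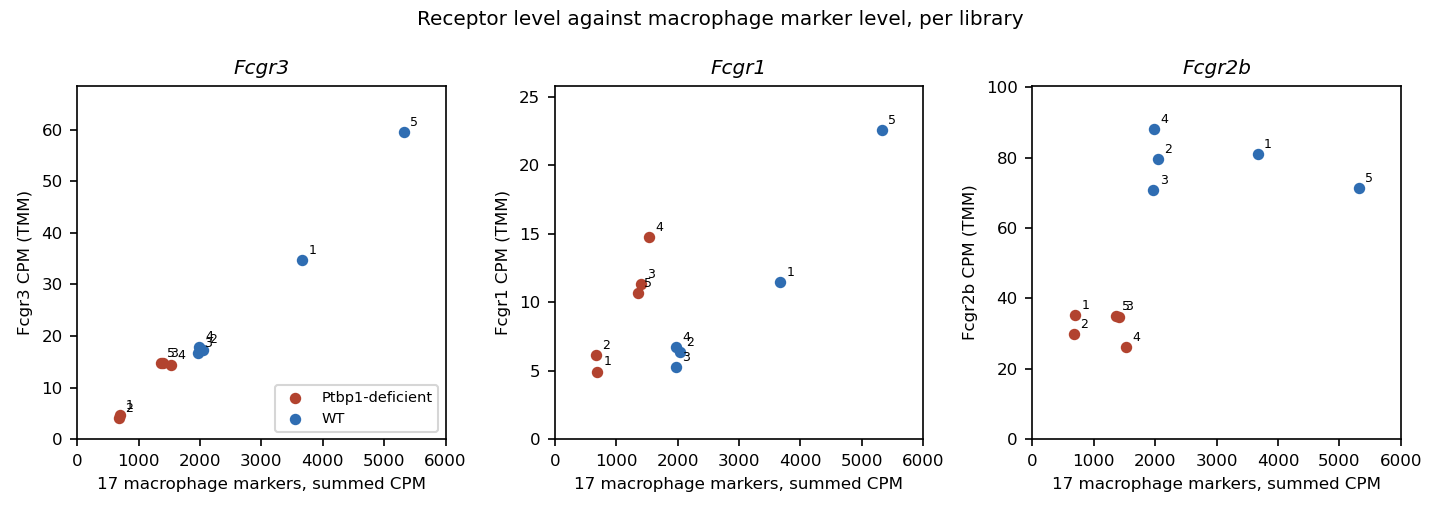
CPM of Fcgr3, Fcgr1 and Fcgr2b (y axes) against the summed CPM of 17 macrophage markers (x axis) in the 10 libraries, numbered by replicate. Fcgr3 climbs with the marker sum through both groups, and Fcgr1 relative to the marker sum is higher in Ptbp1-deficient libraries than in WT libraries. Fcgr2b separates the groups, as the marker sum does, without following it inside either group.

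Fcgr2b and Fcgr3 are near copies over the part that binds antibody, which bears on how well their reads can be told apart. Their coding sequences (GENCODE M21) aligned over 509 bases with 96.5% identity, while the other pairs among Fcgr1, Fcgr2b, Fcgr3 and Fcgr4 had 65.3% to 72.8% identity in their best local alignment. The first 300 aligned bases of both are given here, from coding positions 126 to 425 of Fcgr2b and 111 to 410 of Fcgr3, with the 14 bases that differ in capitals.
Fcgr2b: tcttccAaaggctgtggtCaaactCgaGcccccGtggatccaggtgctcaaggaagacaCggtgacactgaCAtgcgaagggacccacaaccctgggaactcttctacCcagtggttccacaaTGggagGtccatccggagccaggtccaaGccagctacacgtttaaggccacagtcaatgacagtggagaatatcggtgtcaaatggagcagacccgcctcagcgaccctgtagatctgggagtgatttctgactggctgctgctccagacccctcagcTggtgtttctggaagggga
Fcgr3: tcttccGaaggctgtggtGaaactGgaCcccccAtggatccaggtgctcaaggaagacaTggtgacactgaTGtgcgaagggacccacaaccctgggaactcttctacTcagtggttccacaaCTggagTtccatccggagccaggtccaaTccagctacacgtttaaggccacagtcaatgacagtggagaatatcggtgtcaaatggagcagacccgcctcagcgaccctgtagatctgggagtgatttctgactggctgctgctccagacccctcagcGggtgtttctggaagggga
The longest run without a difference was 129 bases. Of the 75-base words of the longest coding transcript, 7.38% of those of Fcgr3 also occurred in Fcgr2b, and 4.62% of those of Fcgr2b occurred in transcripts of other genes. For the other 5 receptors this share was 0. Reads that aligned to more than one place were kept out of the gene rows, so most of each transcript was open to unique counting, but the individual counts of Fcgr2b and Fcgr3 carry this uncertainty.

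Fcgr4, on the plus strand of chromosome 1 (ENSMUSG00000059089, protein coding, 171018920 to 171029761), encodes the mouse activating receptor that binds IgG2a and IgG2b. It stood at 27.3, 26.9, 46.4, 60.3 and 47.3 CPM in Ptbp1-deficient replicates 1 to 5, against 58.9, 30.6, 31.3, 30.8 and 29.7 CPM in WT replicates 1 to 5. The groups overlapped fully: 3 Ptbp1-deficient libraries were above 4 of the WT libraries, the other Ptbp1-deficient libraries were below all of WT, and WT replicate 1 stood alone near the top. Fcgr4 averaged 41.6 ± 14.4 CPM in Ptbp1-deficient libraries and 36.3 ± 12.7 CPM in WT libraries (SD, n = 5 each), with a log2 fold change of 0.20 (SE 0.25, edgeR adjusted p = 0.56). Given the macrophage score it was called higher, at 0.87 (SE 0.25, edgeR adjusted p = 0.020). In that fit 17.2% of all genes were called higher, and genotype and macrophage score cannot be told apart in full.

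Fcgr1, on the minus strand of chromosome 3 (ENSMUSG00000015947, protein coding, 96282909 to 96293969), encodes the high-affinity activating receptor and is induced by interferon gamma. It stood at 4.93, 6.15, 11.3, 14.8 and 10.7 CPM in Ptbp1-deficient replicates 1 to 5, against 11.5, 6.34, 5.25, 6.74 and 22.6 CPM in WT replicates 1 to 5. In each group the libraries rich in macrophage markers were the high ones, and the groups overlapped. Its means, 9.57 ± 4.02 CPM in Ptbp1-deficient and 10.5 ± 7.17 CPM in WT libraries (SD, n = 5 each), gave a log2 fold change of -0.13 (SE 0.41, edgeR adjusted p = 0.83). Relative to macrophage markers Fcgr1 was at 0.711 to 0.966 CPM per 100 CPM of marker in Ptbp1-deficient libraries and 0.266 to 0.424 CPM in WT libraries. The marker sum was itself lower in every Ptbp1-deficient library, so this ratio is higher there for any gene that is level between the groups. Once the macrophage score was in the fit, the log2 fold change of Fcgr1 was 1.36 (SE 0.24, edgeR adjusted p = 0.0014), and with the B cell score it was 1.02 (SE 0.33, edgeR adjusted p = 0.029). With the macrophage score 34.8% of all genes were called, 17.2% higher and 17.6% lower, and with the B cell score 36.7%, 18.5% higher and 18.3% lower.

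**Figure D3:**
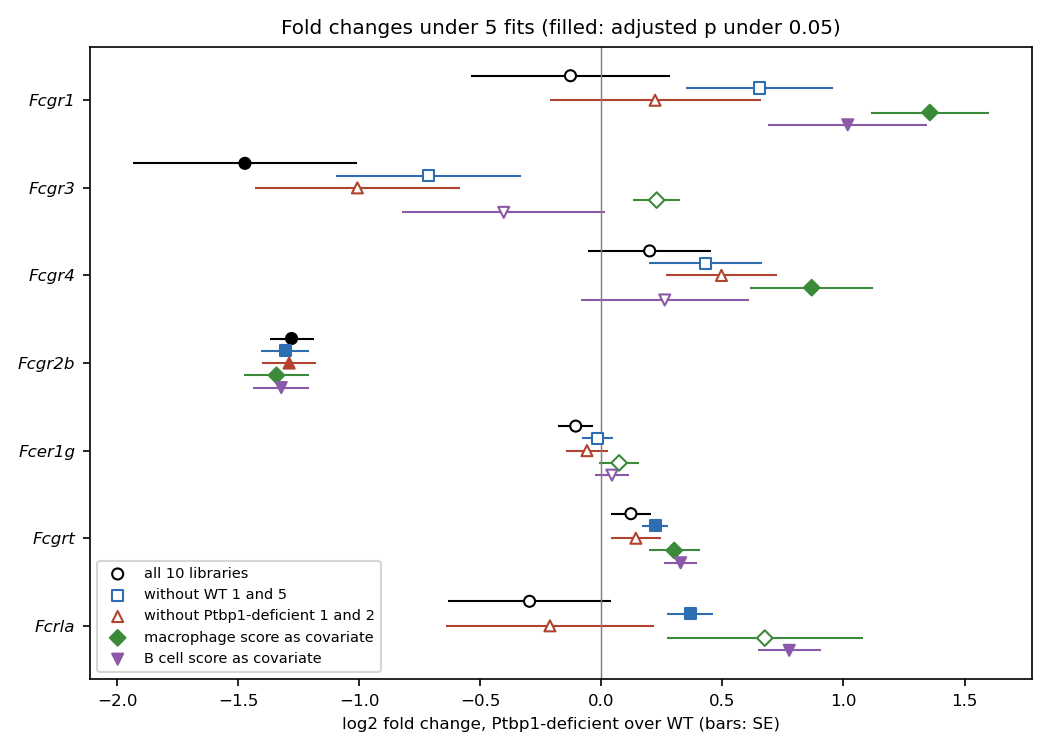
Log2 fold change of each receptor gene, Ptbp1-deficient over WT (x axis, bars are SE), in 5 fits shown by symbol, filled where the adjusted p is under 0.05. Fcgr2b stays between -1.34 and -1.28 in these fits, whereas Fcgr3 runs from -1.47 to 0.23 and Fcgr1 from -0.13 to 1.36.

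The 300 bases around each gene's start (RefSeq, GRCm38.p6) were searched on both strands for GAGGAAG, a core of sites for the myeloid factor PU.1, for TTCNNNGAA, the form of gamma-activated sites bound by STAT factors, and for the core of interferon-stimulated response elements (ISRE), GAAA repeated after any 2 bases. The letters of the last pair of motifs can overlap, but no matches did so in these promoters. GAGGAAG occurred once in Fcgr1, Fcgr3 and Fcgr4, in none of the other 4 receptor genes, and in 13.6% of all 32851 promoter windows. TTCNNNGAA occurred in Fcgr1 alone, and in 8.3% of all windows. The ISRE core occurred in Fcgr4 and Fcrla, and in 3.44% of all windows. The promoters of the 4 IgG receptors are printed with matches in capitals, each on its gene's strand (where GAGGAAG lies on the other strand it reads CTTCCTC), to set the gene that fell in every fit beside the 3 that varied with macrophage markers or did not pass; they lie at chr3:96293920-96294219 (Fcgr1), chr1:171059354-171059653 (Fcgr3, the first of its RefSeq starts), chr1:171018676-171018975 (Fcgr4) and chr1:170976022-170976321 (Fcgr2b).
Fcgr1: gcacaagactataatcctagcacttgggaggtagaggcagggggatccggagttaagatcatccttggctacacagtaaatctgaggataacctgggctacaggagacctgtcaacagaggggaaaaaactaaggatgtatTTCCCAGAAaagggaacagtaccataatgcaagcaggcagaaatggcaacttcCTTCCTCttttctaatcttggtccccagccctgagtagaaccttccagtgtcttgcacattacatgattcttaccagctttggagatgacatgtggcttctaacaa
Fcgr3: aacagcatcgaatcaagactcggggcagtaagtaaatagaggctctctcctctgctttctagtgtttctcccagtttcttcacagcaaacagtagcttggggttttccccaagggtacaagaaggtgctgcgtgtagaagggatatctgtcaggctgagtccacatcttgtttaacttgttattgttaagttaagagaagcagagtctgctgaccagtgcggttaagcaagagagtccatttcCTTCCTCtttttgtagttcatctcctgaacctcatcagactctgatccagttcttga
Fcgr4: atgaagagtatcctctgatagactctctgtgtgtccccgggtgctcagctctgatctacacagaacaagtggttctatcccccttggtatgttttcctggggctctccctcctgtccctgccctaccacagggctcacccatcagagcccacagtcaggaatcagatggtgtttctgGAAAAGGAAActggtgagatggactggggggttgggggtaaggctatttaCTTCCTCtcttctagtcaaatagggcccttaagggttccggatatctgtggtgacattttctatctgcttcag
Fcgr2b: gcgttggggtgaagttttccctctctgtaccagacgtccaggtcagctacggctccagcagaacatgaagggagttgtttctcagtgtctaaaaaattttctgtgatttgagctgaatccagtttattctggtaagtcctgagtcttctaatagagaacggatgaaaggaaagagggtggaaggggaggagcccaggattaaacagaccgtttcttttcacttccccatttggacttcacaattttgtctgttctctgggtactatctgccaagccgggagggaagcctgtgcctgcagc
The GENCODE gene bounds given above reach further upstream than the RefSeq starts of Fcgr2b and Fcgr3, so these 2 windows lie inside the genes as GENCODE draws them. These are matches of letters in a window and say nothing of which factor was bound.

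Levels can be compared between genes in the deposited FPKM values, which scale each gene's fragments by its length and by library depth. Fcer1g was highest in both groups, at 261 ± 12.8 FPKM in Ptbp1-deficient and 295 ± 31.1 FPKM in WT libraries, followed by Fcgrt at 49.6 ± 2.65 and 49.0 ± 6.80 FPKM (SD, n = 5 each). In Ptbp1-deficient libraries Fcgr4 came next at 30.3 ± 10.3 FPKM, then Fcgr2b at 14.9 ± 2.28 FPKM, Fcgr3 at 6.09 ± 2.94 FPKM, Fcrla at 5.70 ± 0.787 FPKM and Fcgr1 at 3.41 ± 1.35 FPKM. In WT libraries Fcgr2b came next at 38.4 ± 5.24 FPKM, then Fcgr4 at 28.1 ± 10.9 FPKM, Fcgr3 at 19.2 ± 9.11 FPKM, Fcrla at 7.46 ± 4.73 FPKM and Fcgr1 at 4.03 ± 2.75 FPKM. Fcgr4 and Fcgr2b thus changed places between the groups. In Ptbp1-deficient libraries their ranges were apart, 19.9 to 43.6 FPKM for Fcgr4 and 12.3 to 17.3 FPKM for Fcgr2b, and in WT libraries they overlapped. WT libraries also overlapped between Fcgrt and Fcgr2b and between Fcgr4 and Fcgr3. In both groups Fcgr3 overlapped Fcrla and Fcrla overlapped Fcgr1.

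Ratios of activating to inhibitory receptor FPKM were higher in Ptbp1-deficient libraries for some receptors and not for others. The sum of Fcgr1, Fcgr3 and Fcgr4 over Fcgr2b was 1.50, 1.97, 2.57, 4.80 and 2.93 in Ptbp1-deficient replicates 1 to 5, against 1.87, 0.993, 1.19, 0.873 and 1.82 in WT replicates 1 to 5. The means were 2.75 ± 1.27 in Ptbp1-deficient libraries and 1.35 ± 0.466 in WT libraries (SD, n = 5 each), but Ptbp1-deficient replicate 1 lay below WT replicates 1 and 5. For Fcgr4 over Fcgr2b the groups were apart, at 1.19 to 3.56 in Ptbp1-deficient libraries and 0.525 to 1.13 in WT libraries. Fcgr3 over Fcgr2b overlapped, at 0.197 to 0.822 in Ptbp1-deficient libraries and 0.288 to 0.911 in WT libraries. The widest gap was between the activating receptors themselves. Fcgr4 over Fcgr3 was 4.33 to 6.53 in Ptbp1-deficient libraries and 0.723 to 1.91 in WT libraries, and Fcgr1 over Fcgr3 was 0.509 to 0.773 in Ptbp1-deficient libraries and 0.154 to 0.272 in WT libraries. The ratio of the sum to Fcgr2b also varied with macrophage markers inside each group. It was lowest in Ptbp1-deficient replicates 1 and 2, which had 694 and 673 CPM of these markers. Within WT it was highest in replicates 1 and 5, which had 3668 and 5325 CPM. These ratios describe the libraries, whatever cells the RNA came from, and were not tested. The part of macrophage RNA in them was not tested either. For Fcgr3 the deposited FPKM did not keep step with the counts. Ptbp1-deficient replicates 3, 4 and 5 had 14.7, 14.3 and 14.7 CPM of it but 7.08, 10.1 and 6.95 FPKM, so ratios with Fcgr3 depend on the measure.

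**Figure D4:**
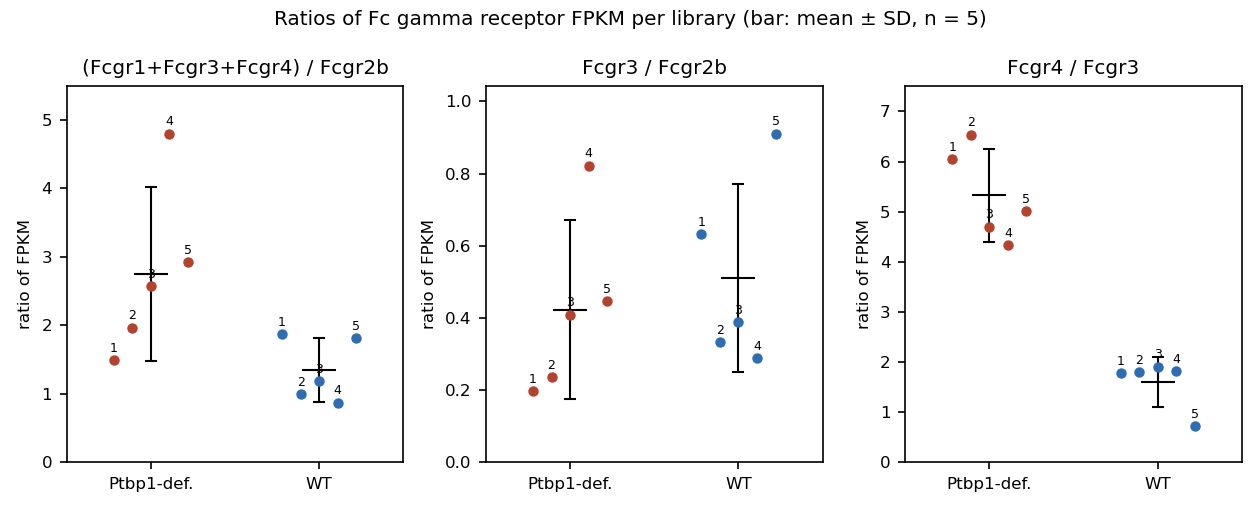
Ratios of deposited FPKM per library (y axes, from 0) in Ptbp1-deficient and WT libraries, with replicate numbers and mean ± SD of 5 libraries. The ratio of Fcgr4 to Fcgr3 is at least 4.33 in Ptbp1-deficient libraries and at most 1.91 in WT libraries, while that of Fcgr3 to Fcgr2b overlaps.

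Fcer1g, on the minus strand of chromosome 1 (ENSMUSG00000058715, protein coding, 171229572 to 171234365), encodes the gamma chain that the activating receptors need at the surface. It stood at 182, 176, 206, 183 and 197 CPM in Ptbp1-deficient replicates 1 to 5, against 211, 173, 202, 197 and 233 CPM in WT replicates 1 to 5. The groups overlapped, with means of 189 ± 12.2 CPM in Ptbp1-deficient and 203 ± 21.9 CPM in WT libraries (SD, n = 5 each) and a log2 fold change of -0.11 (SE 0.07, edgeR adjusted p = 0.26). None of the 25 alternatives called it.

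Fcgrt, on the minus strand of chromosome 7 (ENSMUSG00000003420, protein coding, 45092990 to 45103851), encodes the heavy chain of the neonatal Fc receptor. It stood at 122, 131, 127, 142 and 125 CPM in Ptbp1-deficient replicates 1 to 5, against 113, 111, 106, 116 and 149 CPM in WT replicates 1 to 5. All Ptbp1-deficient libraries were above WT replicates 1 to 4, and WT replicate 5 was above all others. With all libraries the log2 fold change was 0.12 (SE 0.08, edgeR adjusted p = 0.26), and without WT replicate 5 it was 0.22 (SE 0.05, edgeR adjusted p = 0.0040). In the deposited FPKM values it was 0.03 on the log2(FPKM + 1) scale (SE 0.08, limma adjusted p = 0.82).

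Fcrla, on the minus strand of chromosome 1 (ENSMUSG00000038421, protein coding, 170917576 to 170927583), encodes an Fc receptor-like protein that stays inside the cell and is best known from B cells. It stood at 14.2, 13.3, 17.4, 14.3 and 16.7 CPM in Ptbp1-deficient replicates 1 to 5, against 15.1, 12.2, 11.6, 11.6 and 42.8 CPM in WT replicates 1 to 5. WT replicate 5, which had the most B cell marker RNA, stood far above the rest, and the Ptbp1-deficient libraries, at 13.3 to 17.4 CPM, overlapped the other WT libraries, at 11.6 to 15.1 CPM. The log2 fold change was -0.30 with all libraries (SE 0.34, edgeR adjusted p = 0.51) and 0.37 without WT replicates 1 and 5 (SE 0.09, edgeR adjusted p = 0.0088). B cell markers summed to 728 to 783 CPM in Ptbp1-deficient libraries, against 646 to 721 CPM in WT replicates 2 to 4 and 995 CPM in WT replicate 1. In the fit with the B cell score Fcrla was called higher, with a log2 fold change of 0.78 (SE 0.13, edgeR adjusted p = 7e-04). The processed pseudogene Gm2962 lies inside Fcrla on the same strand, so reads there may have been called ambiguous.

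Of the 7 receptor genes 5 lie within 317 kb of chromosome 1, from 170917576 to 171234365, with 6 further genes of the count table between them. Among these 6, Cfap126 and Sdhc rose, Tomm40l and Apoa2 fell, and Gm2962 and Nr1i3 were not called. Sdhc, which encodes a subunit of respiratory complex II, was at 45.4 ± 2.82 CPM in Ptbp1-deficient and 39.1 ± 1.85 CPM in WT libraries (SD, n = 5 each; log2 fold change 0.21, SE 0.05, edgeR adjusted p = 0.0055). Fcgr4 lies between Fcgr2b and Fcgr3, the 2 receptor genes that fell, and was itself not called.

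Genes with the most similar profile differed from receptor to receptor. Likeness was the root mean square difference between log2 CPM profiles centred on their means, over the 10 libraries and 9762 candidate genes. Closest to Fcgr3 were Axl at 0.10, Spic at 0.16 and C1qa at 0.17, all of them in the macrophage marker list, where Fcgr3 itself varied with an SD of 1.15. Closest to Fcgr2b were Tiam2 at 0.08, Myo1e at 0.15 and Abca5 at 0.16. Fcgr1 was followed less closely, by Blvrb at 0.24, March8 at 0.28 and C3 at 0.28, and Fcgr4 by Ms4a7 at 0.16, Cp at 0.21 and Nlrp1b at 0.25. For Fcrla they were Vps37b at 0.15, Ighm, a B cell marker here, at 0.17 and Tnfrsf13c at 0.18. Fcer1g (SD 0.13) and Fcgrt (SD 0.16) varied so little that their nearest genes, Tmem50a at 0.06 and Gkap1 at 0.05, compare nearly flat profiles; next were Ccni and Klhl6 for Fcer1g and Tex2 and Tpst2 for Fcgrt.

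The counts for the lists that follow stand beside the 23.1% of all genes that were lower, the 21.9% that were higher and the 45.0% called in all. Of 8 other Fc receptor and Fc receptor-like genes with a row, 5 fell and 1 rose. Their log2 fold changes had a median of -1.63. Fcrl1, an Fc receptor-like gene of B cells, was at 29.5 ± 3.82 CPM in Ptbp1-deficient and 85.4 ± 7.14 CPM in WT libraries (log2 fold change -1.54, SE 0.09, edgeR adjusted p = 3.5e-07). Fcer2a, the low-affinity IgE receptor CD23, was at 2.10 ± 0.686 CPM in Ptbp1-deficient and 15.2 ± 18.2 CPM in WT libraries, where replicate 5 had 47.0 CPM (edgeR adjusted p = 0.0039). Pigr, the transporter of polymeric antibody, reached at most 1.39 CPM in any library (edgeR adjusted p = 0.0096). Trim21, a cytosolic antibody receptor and ubiquitin ligase, was at 62.6 ± 3.26 CPM in Ptbp1-deficient and 41.8 ± 3.32 CPM in WT libraries (log2 fold change 0.58, SE 0.06, edgeR adjusted p = 1.6e-05). Fcer2a and Fcmr, another of the 5, are B cell markers too, and of all 15 B cell markers 12 fell and none rose. Without WT replicates 1 and 5, 8 of the markers fell and 2 rose, and without Ptbp1-deficient replicates 1 and 2, 4 fell and none rose. Of the 8 Fc receptor and receptor-like genes 4 fell and 2 rose without WT replicates 1 and 5, and 2 fell and 1 rose without Ptbp1-deficient replicates 1 and 2. In the fit with the macrophage score 1 was lower and 2 were higher, where 17.6% of all genes were lower and 17.2% higher.

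Of 11 receptors that signal through the gamma chain 5 fell and 2 rose, 63.6% in all against 45.0% of all genes, the median log2 fold change being -0.51. Clec4n, which encodes the fungal receptor Dectin-2, was at 17.3 ± 4.76 CPM in Ptbp1-deficient and 37.5 ± 15.0 CPM in WT libraries (log2 fold change -1.11, SE 0.26, edgeR adjusted p = 0.0042). The C-type lectin genes Clec4b2 and Clec4b1 fell by 1.70 and 0.58 on the log2 scale (edgeR adjusted p = 8.2e-06 and 2.7e-04). Lilra5, known as a gamma chain partner from human cells, fell by 1.43 on the log2 scale (edgeR adjusted p = 0.0019). The genes that rose were Cd300lf, of the CD300 receptor family, and Ncr1, an NK cell receptor gene that is also one of the NK cell markers. In the fit with the macrophage score 2 fell and 1 rose.

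Of 26 signalling genes downstream of the ITAM 10 rose and 8 fell, 69.2% in all against 45.0% of all genes, at a median log2 fold change of 0.05. Syk, the kinase that docks on the phosphorylated ITAM, was at 347 ± 10.3 CPM in Ptbp1-deficient and 541 ± 27.3 CPM in WT libraries (log2 fold change -0.64, SE 0.05, edgeR adjusted p = 1.1e-06). Plcg2, the phospholipase that Syk activates, was at 414 ± 12.0 CPM in Ptbp1-deficient and 318 ± 16.0 CPM in WT libraries (log2 fold change 0.38, SE 0.04, edgeR adjusted p = 3.7e-05). In the fit with the macrophage score, where 34.8% of all genes were called, 6 rose and 6 fell.

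Of 16 receptors of the inhibitory kind 9 fell and 2 rose, against 23.1% of all genes lower and 21.9% higher, at a median log2 fold change of -0.31. Sirpa, the receptor for CD47 and itself a cDC2 marker, was at 590 ± 49.5 CPM in Ptbp1-deficient and 886 ± 45.9 CPM in WT libraries (log2 fold change -0.59, SE 0.06, edgeR adjusted p = 2.0e-05). Clec4a2, which encodes the dendritic cell lectin DCIR, fell by 0.71, Siglece, a sialic acid-binding lectin gene, by 0.73 and Ceacam1, an adhesion molecule gene, by 1.44 on the log2 scale (edgeR adjusted p = 2.0e-05, 1.1e-04 and 3.5e-05). Without WT replicates 1 and 5, 9 fell and 1 rose.

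Of 10 phosphatases and adaptors that act below the ITIM 4 rose and 3 fell, 70.0% in all against 45.0% of all genes, and the median log2 fold change was -0.00071. Inpp5d, which encodes SHIP1, the lipid phosphatase that Fcgr2b recruits, was at 572 ± 15.1 CPM in Ptbp1-deficient and 501 ± 27.6 CPM in WT libraries (log2 fold change 0.19, SE 0.05, edgeR adjusted p = 0.0055). Its relative Inppl1 was at 38.8 ± 2.30 CPM in Ptbp1-deficient and 60.9 ± 4.06 CPM in WT libraries (log2 fold change -0.65, SE 0.06, edgeR adjusted p = 5.0e-06). Ptpn6, which encodes the phosphatase SHP-1, rose by 0.22 and Ptpn22 by 0.17 on the log2 scale (edgeR adjusted p = 0.0022 and 0.0050).

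**Figure D5:**
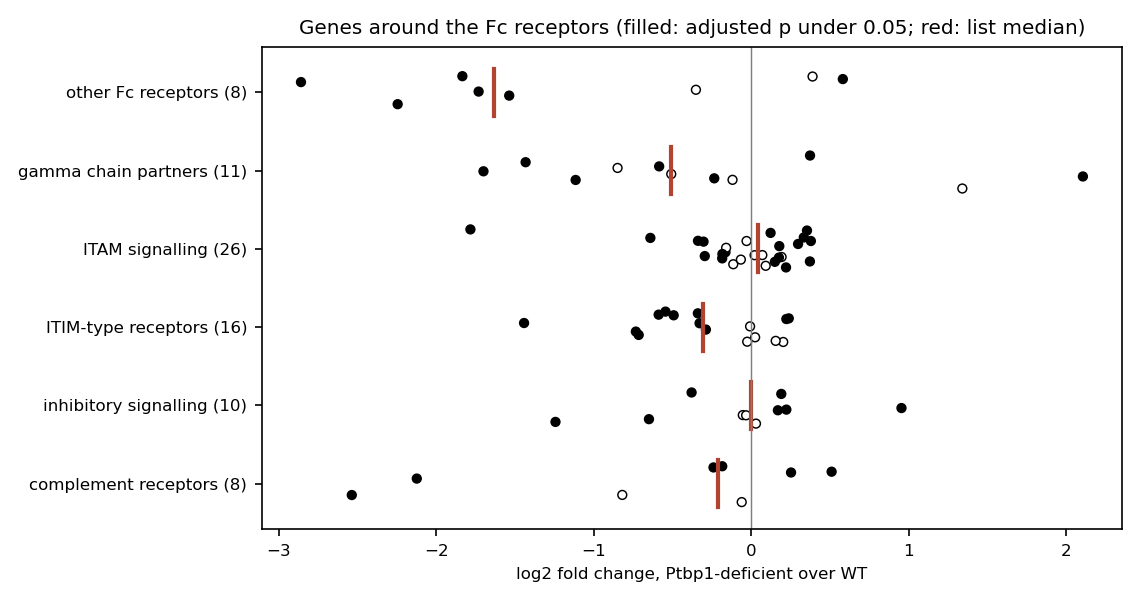
Log2 fold change, Ptbp1-deficient over WT (x axis), of each tested gene in 6 lists around the Fc receptors, with the number tested in brackets, filled where the adjusted p is under 0.05 and with the list median in red. Other Fc receptors have the lowest median, -1.63, and ITAM signalling genes spread around 0.05.

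Of 8 complement receptors, which bind complement fragments on targets or in solution, 2 rose and 4 fell, where 45.0% of all genes were called, at a median log2 fold change of -0.21. Itgax, which encodes CD11c and is also a dendritic cell marker, was at 2168 ± 92.8 CPM in Ptbp1-deficient and 1521 ± 138 CPM in WT libraries (log2 fold change 0.51, SE 0.07, edgeR adjusted p = 8.9e-05). Itgam, which encodes CD11b, a chain of a complement receptor of myeloid cells, and is a cDC2 marker too, was at 45.4 ± 3.59 CPM in Ptbp1-deficient and 53.6 ± 2.04 CPM in WT libraries (log2 fold change -0.24, SE 0.06, edgeR adjusted p = 0.0045). C5ar2, a receptor for C5a, fell by 2.54 and Cr2, also a B cell marker, by 2.12 on the log2 scale (edgeR adjusted p = 6.4e-05 and 3.0e-04). No list was tested as a set. Among the cell type markers stand 3 of these 8 genes, 2 of the 8 other Fc receptors, 2 of the 11 gamma chain partners, 3 of the 16 inhibitory receptors and none of the signalling genes.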

How the data were processed

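RNA-seq of dendritic cells, with 5 Ptbp1-deficient and 5 WT libraries, was analysed from 2 deposited tables. One holds raw read counts per gene as the authors deposited them, with a row for each of 19178 Ensembl gene IDs that has at least 2 counts in every library; rows for reads in no gene (17.2% to 22.2% of those listed), ambiguous, unaligned or aligned to several places were left out. The other holds FPKM values that the authors computed for 11968 genes, each above 1 FPKM in every library. The submitters' processing notes name HISAT2, StringTie, DESeq2 and the human build GRCh38, while the gene IDs are of mouse; the counting tool and strand setting were not given in the sources used here. Symbols came from GENCODE M21 (GRCm38), which matched 19049 IDs.

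Counts were filtered with filterByExpr, scaled by TMM and tested with edgeR 4.0.16 (quasi-likelihood, genotype as the only term, Benjamini-Hochberg adjusted p under 0.05 over 18248 genes) in R 4.3.3. FPKM were tested with limma 3.58.1 on log2(FPKM + 1). In counts simulated for this comparison over 18248 genes, 3 of 50 genes changed by 1.25-fold were called, 35 of 50 at 1.5-fold, 50 of 50 at 2-fold and 50 of 50 at 4-fold, with 6 false calls. Every simulated gene had the same low dispersion between libraries. Fcgr1, Fcgr3, Fcgr4 and Fcrla spread more (SE of the log2 fold change 0.41, 0.46, 0.25 and 0.34), so these rates do not apply to them. Alternatives were DESeq2 1.42.0, limma-voom with quality weights for libraries, other scalings and filters, a replicate block, marker scores as covariates and libraries left out. The receptors, the pathway and marker lists and the doubted libraries were chosen with earlier results of these data known. From each pathway list up to 4 called genes of smallest adjusted p were named, apart from a result that is not reported here, with a few further called genes chosen after their values were seen (Fcmr, Cd300lf, Ncr1), and for each receptor the 3 genes of most similar profile.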

Additional observations from a re-analysis of the deposited data

Results flagged for a closer look

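In 8 of 64 group checks, over the 32 genes checked, 1 library lay far from the other 4 of its group by Dixon's criterion, which chance alone meets in about 1 in 20 groups. All 8 were in WT libraries. In WT replicate 5, Fcrla had 42.8 CPM (11.6 to 15.1 CPM in the other WT libraries), Fcgrt 149 CPM (106 to 116 CPM), Fcer2a 47.0 CPM (3.94 to 13.4 CPM), Cr2 49.97 CPM (14.2 to 22.3 CPM) and Ceacam1 38.3 CPM (18.8 to 23.7 CPM), each the highest of its group. Trim21 was lowest there, at 36.1 CPM (42.1 to 44.4 CPM in the other WT libraries). In WT replicate 1, Fcgr4 was highest, at 58.9 CPM (29.7 to 31.3 CPM in the other WT libraries). In WT replicate 4, Vav2 was lowest, at 237 CPM (259 to 266 CPM in the other WT libraries).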

How the results depend on the processing

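Fcgr2b fell under all 25 alternatives, with log2 fold changes from -1.36 to -1.22, and Fcer1g was called under none of 25. Fcgr3 kept its fall when any 1 library was left out (-1.63 to -1.04) but was not called without WT replicates 1 and 5 (-0.71), without Ptbp1-deficient replicates 1 and 2 (-1.01), with limma-voom with quality weights for libraries (-0.90), with the B cell score (-0.40) or at an adjusted p under 0.01 (-1.47), and with the macrophage score its sign turned (0.23). The cause was not tested. The macrophage score also turned Fcgr1 (1.36) and brought calls for Fcgr4 (0.87) and Fcgrt (0.30). The B cell score turned Fcgr1 (1.02) and Fcrla (0.78) and brought a call for Fcgrt (0.33). Without WT replicates 1 and 5, Fcrla turned (0.37) and Fcgrt was called (0.22), as Fcgrt was with weighted limma-voom (0.19). Leaving out 1 library at a time, Fcgrt ran from 0.076 to 0.22 and was called without WT replicate 5. Without WT replicate 5 alone, the uncalled values of Fcgr1 and Fcrla were 0.37 and 0.27 (edgeR adjusted p = 0.36 and 0.056), each of the other sign than with all libraries. Fcgr1, uncalled, was also above 0 without WT replicates 1 and 5 (0.65), without Ptbp1-deficient replicates 1 and 2 (0.22) and with weighted limma-voom (0.48).

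Receptors called higher, 0 in the reported fit, were 3 with either score, 2 without WT replicates 1 and 5, 1 with weighted limma-voom and 0 to 1 with 1 library left out. Receptors called lower, 2 in the reported fit, were 1 with either score, with weighted limma-voom, under the stricter threshold and without either pair of libraries. Of all genes, 17.2% were higher and 17.6% lower with the macrophage score, and 18.5% and 18.3% with the B cell score. Without WT replicates 1 and 5 they were 21.7% and 22.3%, and without Ptbp1-deficient replicates 1 and 2, 19.3% and 20.6%. Weighted limma-voom called 4442 of 18248 genes higher and 4705 lower. The stricter threshold called 2841 higher and 2827 lower. With 1 library left out, 3558 to 4143 genes were higher. With the score for macrophages the other Fc receptors had 2 higher and 1 lower, gamma chain partners 1 and 2, ITAM genes 6 higher, inhibitory signalling genes 1 and 1, and complement receptors 1 higher. With the B cell score, other Fc receptors had 3 lower, gamma chain partners 3 lower, ITAM genes 4 lower, ITIM receptors 1 higher and inhibitory signalling genes 2 higher and 1 lower. Without WT replicates 1 and 5, other Fc receptors had 2 higher, as with weighted limma-voom, and ITIM receptors 1 higher. Without Ptbp1-deficient replicates 1 and 2, other Fc receptors had 2 lower, and ITIM receptors and complement receptors 1 higher each. Under the stricter threshold, other Fc receptors had 3 lower, ITAM genes 6 higher, and ITIM and complement receptors 1 higher each. Leaving out 1 library at a time, the other Fc receptors had 1 to 2 higher.

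Same-numbered libraries correlated between -0.096 and 0.114 in their deviations from the group means, so the numbers were not taken to pair them. With the replicate block Fcgr2b had a log2 fold change of -1.28 (edgeR adjusted p = 9.4e-05) and Fcgr3 of -1.49 (edgeR adjusted p = 0.021), and no call of a receptor changed. The lowest count behind a receptor was 262 reads, for Fcgr3.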
